A study of Mus musculus with 31 samples.

Results

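Small RNA of the right hippocampus was compared between wild-type (WT) C57Bl/6 J mice after 4 weeks of exercise and WT C57Bl/6 J mice given water. The 12 libraries, 5 of WT-exercise and 7 of WT-water, were chosen by their labels from the 31 libraries of the series. Besides these, the series holds mice lacking the serotonin transporter (5-HTT knockout, KO) and mice given corticosterone, a stress hormone of the adrenal cortex. None of the 12 mice carried a transgene or a deletion by the labels, which give no age, no sex, no form of exercise and no housing for single animals. The labels name each library as a biological replicate, so 1 library was taken as 1 animal. Libraries were made from total RNA enriched for small RNA and were sequenced on an Ion Torrent S5, per the labels' protocols.

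MicroRNAs are short RNAs that guide Argonaute proteins to messenger RNAs, mostly through the seed, the bases 2 to 8 of the mature strand. A hairpin precursor can give a mature strand from either arm, named 5p and 3p, and usually one arm is kept and the other degraded. In the hippocampus, miR-132 and miR-212 are known as microRNAs whose transcription follows neuronal activity through the factor CREB, and miR-124, miR-9 and miR-128 as abundant microRNAs of neurons. Exercise is widely studied in this region for its effect on newborn neurons of the dentate gyrus and on growth factors such as Bdnf.

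The sequences on which the comparison turns are given first, as RefSeq lists them for GRCm38.p6, 5′ to 3′ with the seed in capitals. Shared seeds are shown because the families were also tested as sums. The first set shares the seed AACAGUC and comes from 1 cluster on chromosome 11, inside an intron of the noncoding transcript 1700016P03Rik in GENCODE.
miR-132-3p: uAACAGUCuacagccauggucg
miR-212-3p: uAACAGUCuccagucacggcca
A second set, of miR-130a-3p on chromosome 2, miR-301a-3p on chromosome 11 and miR-130b-3p on chromosome 16, shares the seed AGUGCAA.
miR-130a-3p: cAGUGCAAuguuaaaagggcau
miR-301a-3p: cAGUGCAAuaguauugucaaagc
miR-130b-3p: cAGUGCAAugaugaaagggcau
The third set shares AGCAGCA and belongs to the miR-15/16 family. The mature miR-16-5p can come from a hairpin in an intron of Smc4 on chromosome 3 and from another in an intron of Dleu2 on chromosome 14.
miR-16-5p: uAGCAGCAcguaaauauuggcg
miR-195a-5p: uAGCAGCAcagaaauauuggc
Strands of let-7, the largest family by number of members tested, differ from each other by few bases outside the shared seed, so that the split of counts between them is uncertain.
let-7b-5p: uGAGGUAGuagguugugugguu
let-7c-5p: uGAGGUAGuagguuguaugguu
let-7e-5p: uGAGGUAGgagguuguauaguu
A further pair is shown because one strand lies opposite the other. miR-126b-5p (chr2:26591399-26591420, minus strand) overlaps miR-126a-3p (chr2:26591402-26591423, plus strand), a microRNA of blood vessels inside Egfl7, and the 19 shared bases are fully complementary.
miR-126b-5p: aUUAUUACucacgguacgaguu
miR-126a-3p: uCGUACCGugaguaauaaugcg
The last set holds microRNAs that were lower after exercise.
miR-3084-3p: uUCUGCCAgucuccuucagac
miR-150-3p: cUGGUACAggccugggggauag
miR-331-3p: gCCCCUGGgccuauccuagaa
miR-181b-5p: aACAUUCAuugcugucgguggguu
miR-99b-5p: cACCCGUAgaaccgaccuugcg

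Counts assigned to mature microRNAs totalled 1411350 to 2279300 per exercise library and 1639753 to 4052174 per water library, and the means differed (exact two-sided permutation test, p = 0.0328, smallest possible 0.00126). Detected microRNAs averaged 910.4 against 978.4 at full depth and 871.8 against 879.1 after thinning each library to 1411350 counts (exact two-sided permutation p = 0.371 after thinning). The tissue label could be checked only in part, since neither marker used here tells hippocampus from other forebrain tissue. The neuronal miR-124-3p alone took 23.6% ± 1.39 (SD, n = 5) of counts after exercise and 24.8% ± 2.82 (SD, n = 7) with water. MicroRNA markers of the Hox clusters, which mark hindbrain and spinal cord, summed to at most 24.6 CPM (counts per 1000000 of the scaled library size) in any of the 12 libraries. In bulk tissue, fewer cells of a type and less RNA per cell cannot be told apart.

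Exercise libraries did not form 1 homogeneous group. WT-exercise 3, 4 and 5 correlated with each other at r = 0.981 to 0.990 over log2 CPM of tested microRNAs, and with WT-exercise 1 and 2 at 0.931 to 0.968. The 7 water libraries correlated among themselves at 0.974 to 0.992, with WT-exercise 1 and 2 at 0.944 to 0.985 and with WT-exercise 3, 4 and 5 at 0.916 to 0.959. The 5 most abundant microRNAs (miR-124-3p, miR-29b-3p, miR-128-3p, miR-9-5p and miR-29a-3p) together took 43.5% and 46.9% of counts in WT-exercise 1 and 2, and 35.3%, 33.95% and 33.5% in WT-exercise 3, 4 and 5. Water libraries lay between 42.6% and 50.0%, so WT-exercise 3, 4 and 5 lay below all of them. The same low share, 34.3% to 35.9%, was present in KO-water 3, 4 and 6, which had no exercise, while KO-water 1, 2 and 5 lay at 43.9% to 47.4%. It was also present in WT-corticosterone 1, 5 and 6 (31.9% to 35.3%, the others 42.4% to 45.7%) and in KO-exercise 2 and 4 (35.05% and 34.1%, the others 38.4% to 45.7%). No label separates these libraries. Calls were therefore also made without WT-exercise 1 and 2, and without WT-exercise 3, 4 and 5.

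Of 1966 microRNAs in the table, 553 passed the filter on low counts and were tested. At an adjusted p below 0.05 (edgeR quasi-likelihood test, Benjamini-Hochberg), 110 rose (19.9% of those tested) and 70 fell (12.7%), together 180 (32.5%). The median log2 fold change over all tested was 0.04. Changes past 2-fold numbered 35 upward and 31 downward. The 110 risers went from 14.7% to 25.7% of summed CPM, and the 70 fallers from 10.02% to 5.75%. Without scaling factors, which shifted the median of all tested microRNAs from 0.04 to -0.07, the calls split into 78 that rose and 85 that fell.

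For 55 microRNAs (9.95%) the 5 exercise libraries did not overlap the 7 water libraries, 30 above (5.42%) and 25 below (4.52%), and all 55 were among the calls. Among all the calls, the exercise libraries differed in how far they lay from water. WT-exercise 3, 4 and 5 lay above every water library for all but 3, 2 and 2 of the 110 risers, against 60 for WT-exercise 1 and 46 for WT-exercise 2. The median difference of the risers from the water mean was 1.23, 1.10 and 1.09 on the log2 scale in WT-exercise 3, 4 and 5, and 0.38 and 0.20 in WT-exercise 1 and 2. Left without WT-exercise 1 and 2, the comparison called 336 (57.6%; 33.6% rose and 24.0% fell), with 176 of the 180 among them. Left without WT-exercise 3, 4 and 5, it called 10 that rose (1.68%) and 4 that fell (0.672%), together 14 (2.35%), all of them among the 180. These 14 are miR-126b-5p, miR-122b-3p, miR-132-3p, miR-194-5p, miR-130a-3p, miR-212-3p, miR-16-5p, miR-3059-5p, miR-873a-5p and miR-142a-3p, higher, and miR-150-3p, miR-331-3p, miR-1249-3p and miR-92b-3p, lower. Every other microRNA given below as risen or fallen in this comparison lost its call without WT-exercise 3, 4 and 5.

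**Figure D1:**
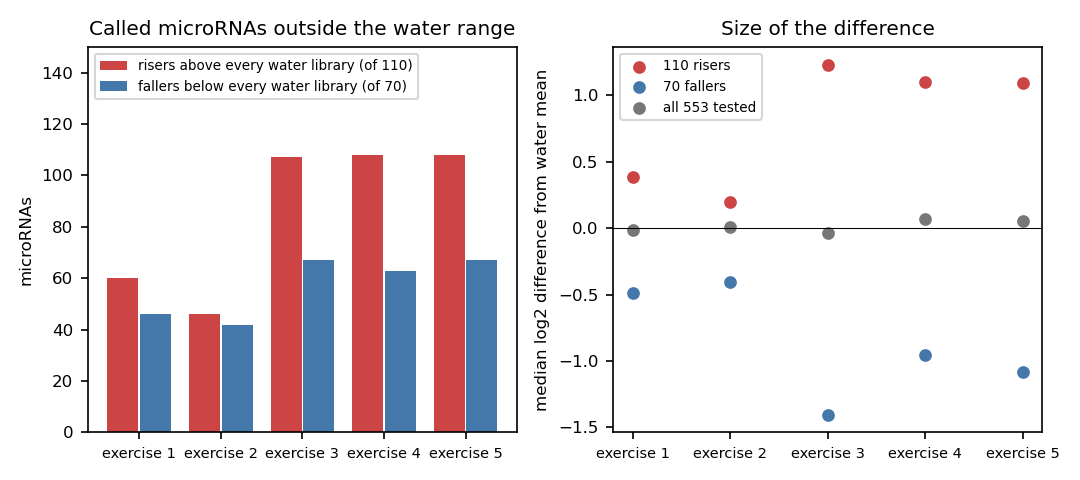
Left, number of the 110 risers above every water library and of the 70 fallers below every water library, for each WT-exercise library; right, median log2 difference from the water mean over the risers, the fallers and all 553 tested microRNAs. Exercise 3, 4 and 5 miss only 2 or 3 risers, exercise 1 and 2 reach 60 and 46.

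**Figure D2:**
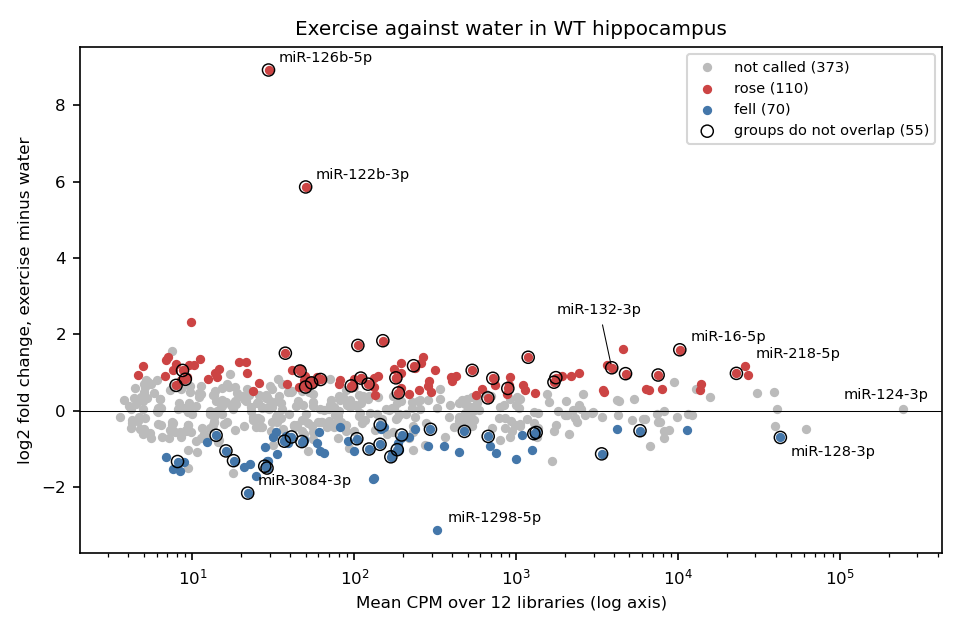
log2 fold change (exercise minus water) of the 553 tested microRNAs against mean CPM over the 12 libraries (log axis), coloured by call, with rings on the 55 whose groups do not overlap. Risers and fallers occur at all abundances, and miR-126b-5p and miR-122b-3p lie far above the rest.

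Sample codes in the labels start with G or H, and what the letter stands for is not stated. Letter G holds WT-exercise 1, 2 and 3 with WT-water 1 to 5, and called 10 microRNAs, 7 that rose and 3 that fell. Letter H holds WT-exercise 4 and 5 with WT-water 6 and 7, and called 111 that rose and 99 that fell. With the letter as a covariate, 86 rose and 66 fell.

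Both strands of the activity-regulated miR-132/miR-212 cluster rose. miR-132-3p, which acts on dendrite growth and spine form, ranged from 2368 to 3401 CPM with a median of 2450 in water, and stood at 4628, 5520, 5942, 6917 and 5392 CPM in WT-exercise 1 to 5. All 5 exercise libraries lay above all 7 water libraries, and WT-water 1 was the one water library well above the others. Its log2 fold change was 1.13 ± 0.14 (SE; adjusted p = 0.000134), 1.31 without WT-exercise 1 and 2 and 0.97 without WT-exercise 3, 4 and 5. miR-212-3p, with the same seed, ranged from 1118 to 1627 CPM (median 1290) in water and stood at 2073, 2377, 2434, 2206 and 2094 CPM after exercise. The exercise libraries were closer together here than for most risers, and the 3 that stood apart elsewhere did not stand apart. Its log2 fold change was 0.75 ± 0.12 (adjusted p = 0.000974). The other strands of both hairpins rose too, miR-132-5p by 0.59 ± 0.13 and the sparse miR-212-5p by 0.67 ± 0.22 on the log2 scale.

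As a family the seed AACAGUC rose from 3824 ± 482 CPM (SD, n = 7) to 8236 ± 1127 CPM (SD, n = 5), with a log2 fold change of 1.11 ± 0.13 (adjusted p = 0.00014). miR-132-3p supplied 69.1% of the family's counts. Of the 15 tested microRNAs on a list of activity-regulated microRNAs, 7 rose and none fell, against 19.9% and 12.7% of all tested, and the list median was 0.56. Beside the 4 strands of this cluster, these were miR-218-5p (1.17 ± 0.27), miR-134-5p (0.79 ± 0.21), which limits spine size through Limk1, and miR-184-3p (0.98 ± 0.27). Without WT-exercise 3, 4 and 5 only miR-132-3p and miR-212-3p of the list were called. Without WT-exercise 1 and 2 the list had 9 that rose and 3 that fell, where 33.6% and 24.0% of all tested did.

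**Figure D3:**
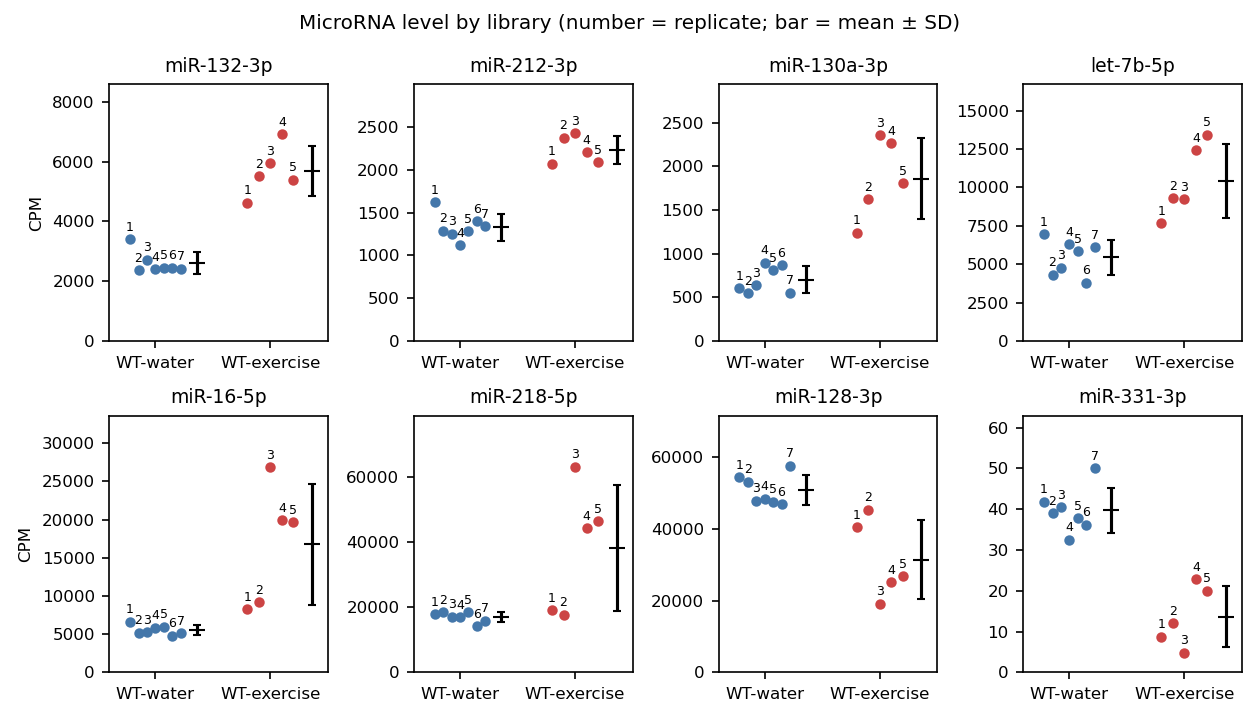
CPM of 8 microRNAs in each of the 7 WT-water and 5 WT-exercise libraries; numbers are replicates and bars the mean ± SD. miR-132-3p, miR-212-3p and miR-331-3p separate all exercise libraries from water, whereas miR-218-5p is near the water level in exercise 1 and 2.

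A pair of microRNAs was nearly absent in water and present in every exercise library. Water libraries together held 2 counts of miR-126b-5p, both in WT-water 4, against 64, 293, 24, 172 and 115 counts in WT-exercise 1 to 5. Relative to library totals, the exercise level was 722 times that of water, with a counting interval (95%, exact) of 199 to 5974. miR-122b-3p had 42 counts in water, at most 13 in 1 library, and 139, 444, 23, 300 and 208 after exercise, a ratio of 57.3 with an interval of 42.1 to 80.0. These intervals cover counting error only.

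miR-196b-5p, which lies within an exon of Hoxa9, showed the same pattern at counts too low for the filter. It had no count in water and 6, 20, 10, 35 and 29 counts after exercise, 72.1 times as high relative to library totals when water is set at 3 counts over the group, with an exact lower counting limit (95%) of 57.5 times. By counts, each of these was highest in WT-exercise 2 or WT-exercise 4, so their order does not follow the split of WT-exercise 1 and 2 from 3, 4 and 5. miR-126a-3p, opposite miR-126b-5p on the genome, stood between 4865 and 6001 CPM in water, where miR-126b-5p was at or near 0. Strand use in the counting is not known here. Without strand, reads of a microRNA and its antisense partner cannot be told apart, which applies to miR-126b and to miR-122b, which overlaps Mir122.

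miR-130a-3p, a microRNA of vessels and progenitor cells, rose in all 5 libraries. It ranged from 550 to 898 CPM (median 637) in water and stood at 1240, 1621, 2358, 2265 and 1805 CPM after exercise, with no overlap. The log2 fold change was 1.40 ± 0.19 (adjusted p = 0.000229), and 1.04 in the comparison left with WT-exercise 1 and 2. Its seed partners moved less evenly: miR-130b-3p rose by 1.34 on the log2 scale, while miR-301a-3p had 0.39 ± 0.17 and was not called (adjusted p = 0.0874). Summed over the seed AGUGCAA, the mean level was 1294 ± 214 CPM in water and 2807 ± 740 CPM after exercise (1.12 ± 0.18 on the log2 scale).

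The cell-cycle regulators of the miR-15/16 family rose through 2 of 6 tested members, against 19.9% of all tested microRNAs. miR-16-5p, which is reported to act on the serotonin transporter and on Bdnf messages, ranged from 4796 to 6624 CPM (median 5233) in water and stood at 8258, 9185, 26875, 19899 and 19671 CPM after exercise. All exercise libraries exceeded all water libraries, and WT-exercise 3, 4 and 5 were at least 2 times as high as WT-exercise 1 and 2. The log2 fold change of 1.60 ± 0.25 (adjusted p = 0.000974) was 2.09 without WT-exercise 1 and 2 and 0.67 without the other 3. miR-195a-5p rose by 0.91 ± 0.20, while miR-15a-5p (-0.06), miR-15b-5p (-0.08) and miR-497a-5p (0.07) were not called. The family sum was 8881 ± 917 CPM in water and 22927 ± 10402 CPM after exercise.

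miR-194-5p, best known from liver and gut, went from a median of 53.2 CPM (35.02 to 65.7) in water to 125, 111, 271, 193 and 185.5 CPM after exercise. The log2 fold change was 1.71 ± 0.22 (adjusted p = 0.000194), 2.09 without WT-exercise 1 and 2 and 1.14 without WT-exercise 3, 4 and 5. Of the liver and gut list, 2 of 3 tested members rose, against 19.9% of all tested. These were miR-194-5p and its cluster neighbour miR-192-5p (0.86), and the liver microRNA miR-122-5p (0.32) was not called. miR-3059-5p, from an intron of Mgat4c, ranged from 11.98 to 33.4 CPM in water and from 47.4 to 92.5 CPM after exercise, with its highest value in WT-exercise 1. It had a log2 fold change of 1.51 ± 0.24, and of 1.79 without WT-exercise 3, 4 and 5. miR-873a-5p, from an intron of the neuronal gene Lingo2, stood at 285 to 410 CPM in water and at 541, 567, 1117, 807 and 801 CPM after exercise (1.06 ± 0.18, and 0.60 without WT-exercise 3, 4 and 5).

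let-7 strands, which promote differentiation and restrain proliferation of neural progenitors, rose in 5 of 10 tested guide strands and fell in none. Of all tested microRNAs, 19.9% rose and 12.7% fell. let-7c-5p, the most abundant, ranged from 10825 to 21595 CPM (median 17077) in water and stood at 25103, 25727, 27528, 40990 and 41221 CPM after exercise. let-7b-5p ranged from 3798 to 6943 CPM (median 5829) in water and stood at 7675, 9307, 9240, 12431 and 13444 CPM after exercise. Both were without overlap, with log2 fold changes of 0.98 ± 0.20 and 0.94 ± 0.19. let-7a-5p (0.55), let-7d-5p (0.58) and let-7e-5p (0.58) rose less, and let-7f-5p (0.37), let-7g-5p (-0.11) and let-7i-5p (-0.05) were not called. Without WT-exercise 3, 4 and 5 none of the guide strands was called, and without scaling factors 3 rose. The family sum went from 73004 ± 14602 to 114036 ± 17281 CPM (0.64 ± 0.17), and was not called without WT-exercise 3, 4 and 5 (0.50 ± 0.20).

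The passenger strands of let-7 moved in both directions, with 3 of 12 that rose and 5 that fell, against 19.9% and 12.7% of all tested. let-7b-3p rose by 1.18 ± 0.19, from 111 to 185.3 CPM in water to 230, 267, 353, 468 and 402 CPM after exercise. let-7c-1-3p (-1.05 ± 0.27) and let-7e-3p (-0.76 ± 0.24) fell while the guide strands paired with them rose. let-7a-2-3p (-1.52) fell too, but was not paired with a guide strand here. None of the passenger strands was called without WT-exercise 3, 4 and 5.

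Neuron-enriched microRNAs did not move as a block. Of 20 tested, 8 rose, 2 fell and 10 were not called, against 19.9% that rose and 12.7% that fell of all tested, with a median of 0.40 against 0.04. miR-124-3p, the most abundant microRNA of all libraries, had a log2 fold change of 0.04 ± 0.15, and miR-9-5p one of 0.04. miR-218-5p, which acts on the excitability of motor and hippocampal neurons, ranged from 14132 to 18448 CPM (median 17136) in water and stood at 19169, 17731, 63198, 44300 and 46508 CPM after exercise. WT-exercise 2 lay within the water range, and the log2 fold change of 1.17 ± 0.27 (adjusted p = 0.00667) was 0.13 in the comparison without WT-exercise 3, 4 and 5. miR-139-5p, from an intron of Pde2a, rose by 0.97 ± 0.20 and lay above every water library in all 5.

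Among the fallers of that list, miR-128-3p, which dampens neuronal excitability, ranged from 46914 to 57598 CPM (median 48399) in water and stood at 40448, 45297, 19194, 25168 and 26780 CPM after exercise. The groups did not overlap, yet its log2 fold change of -0.70 ± 0.20 (adjusted p = 0.0183) was -0.23 without WT-exercise 3, 4 and 5. Without WT-exercise 3, 4 and 5 the list had 1 member that rose, miR-873a-5p, and none that fell.

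On the list for neural stem cells and neurogenesis, 6 of 20 rose and 1 fell, against 19.9% and 12.7% of all tested, with a median of 0.06. The risers were let-7b-5p, let-7d-5p, miR-195a-5p, miR-17-5p (0.55), miR-18a-5p (0.41) and miR-184-3p, and the faller was miR-92b-3p (-0.54 ± 0.13). miR-137-3p (-0.21), miR-125b-5p (0.46) and miR-19b-3p (-0.29) were not called. The miR-17/92 cluster and its paralogs, which drive proliferation, had 3 of 12 that rose (miR-17-5p, miR-18a-5p and miR-106b-3p) and 1 that fell (miR-93-3p). The shares of all tested, 19.9% and 12.7%, apply here too. Of 12 fits that each left out 1 library, 10 lost the call of miR-18a-5p, 9 that of miR-93-3p and 0 that of miR-17-5p. Neither list had a riser without WT-exercise 3, 4 and 5.

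Among 10 tested microRNAs reported to target Bdnf or Igf1, 3 rose (miR-16-5p, miR-195a-5p and miR-182-5p) and none fell, with a median of 0.02. Of all tested, 19.9% rose and 12.7% fell. miR-206-3p, a muscle microRNA reported to repress Bdnf, was near the lower limit of measurement at 2.81 to 5.88 CPM in water and 1.61 to 7.59 CPM after exercise (0.04 ± 0.36). None of the 5 tested muscle microRNAs was called in either direction (edgeR). Without WT-exercise 1 and 2 that list had 2 that fell, where 24.0% of all tested fell. The muscle microRNA miR-208a-3p was at 0 in all 12 libraries. Of 5 tested microRNAs reported to act on the serotonin transporter message, 3 rose and none fell, against the same 19.9% and 12.7%. They were miR-16-5p, miR-135a-5p (0.87 ± 0.17) and miR-135b-5p (0.86). The near-identical sequences of miR-135a-5p and miR-135b-5p make their split uncertain. Of the lists for Bdnf, Igf1 and the transporter, only miR-16-5p was called without WT-exercise 3, 4 and 5. miR-34a-5p (0.31 ± 0.14), miR-210-3p (-0.36 ± 0.17), which follows hypoxia, and miR-30a-5p were not called.

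The faller with the smallest p was miR-3084-3p, whose 2 copies lie inside small nucleolar RNA genes (Snora19 and Gm23658) in introns of Eif3a and Cbwd1. It ranged from 23.2 to 58.0 CPM (median 25.1) in water and stood at 11.2, 8.91, 4.02, 4.1 and 7.59 CPM after exercise, without overlap (-2.15 ± 0.33, adjusted p = 0.000974). miR-150-3p ranged from 32.0 to 59.4 CPM (median 33.9) in water and stood at 13.1, 15.2, 4.82, 19.1 and 16.3 CPM after exercise (-1.45 ± 0.27). miR-331-3p, within Vezt, ranged from 32.5 to 50.1 CPM (median 39.1) in water and stood at 8.75, 12.05, 4.82, 22.8 and 20.1 CPM after exercise (-1.50 ± 0.29). For the last, WT-exercise 1 and 2 were as low as the others, and the log2 fold change without WT-exercise 3, 4 and 5 was -1.91.

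Several other fallers come from imprinted or brain-expressed transcripts. miR-770-5p, within Meg3, ranged from 147 to 344 CPM in water and from 89.5 to 134 CPM after exercise (-1.02 ± 0.22). miR-431-3p, opposite the imprinted gene Rtl1, ranged from 40.9 to 49.5 CPM in water and from 21.7 to 31.9 CPM after exercise (-0.79 ± 0.16). miR-1249-3p, within 5031439G07Rik, ranged from 150 to 232 CPM in water and from 68.3 to 114 CPM after exercise (-0.88 ± 0.18). All of these were without overlap. Others among the 10 fallers of smallest p were miR-181b-1-3p (-1.30 ± 0.27), miR-7a-2-3p (-0.63 ± 0.13), miR-7a-1-3p (-0.91 ± 0.20) and miR-99b-5p (-0.60 ± 0.13), a neighbour of let-7e in an intron of Spaca6. let-7e-5p rose where this neighbour fell.

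All 4 members of the miR-181 family fell, against 12.7% of all tested microRNAs. Their sum went from 8943 ± 774 to 6361 ± 689 CPM (edgeR, -0.49 ± 0.13, adjusted p = 0.0112). The sum was not called without WT-exercise 3, 4 and 5 (-0.43 ± 0.12, adjusted p = 0.0959), where the edgeR test had 2 exercise libraries. In single libraries the sum ranged from 7463 to 9963 CPM in water and stood at 7133, 5943, 5502, 6252 and 6977 CPM after exercise, without overlap. The members are near-identical in sequence, and miR-181a-5p supplied 72.8% of the counts. miR-181 is expressed in neurons and is known to act on glutamate receptor messages.

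Over all seeds, 399 families were tested, of which 87 rose (21.8%) and 49 fell (12.3%), together 136 (34.1%). Of the 47 with more than 1 tested member, 12 rose and 3 fell, and none had members called in opposite directions. Beside those above, miR-26 (seed UCAAGUA, 1.03 ± 0.24) and miR-30 (seed GUAAACA, 0.52 ± 0.16) rose, and the 3p strands of miR-7a-2 and miR-7b (-0.76 ± 0.18) and the 5p strands of miR-103-1 and miR-107 (-0.76 ± 0.21) fell. Of the families named here, those of miR-132, miR-130 and miR-16 (0.59 ± 0.14) were among the 14 called without WT-exercise 3, 4 and 5.

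**Figure D4:**
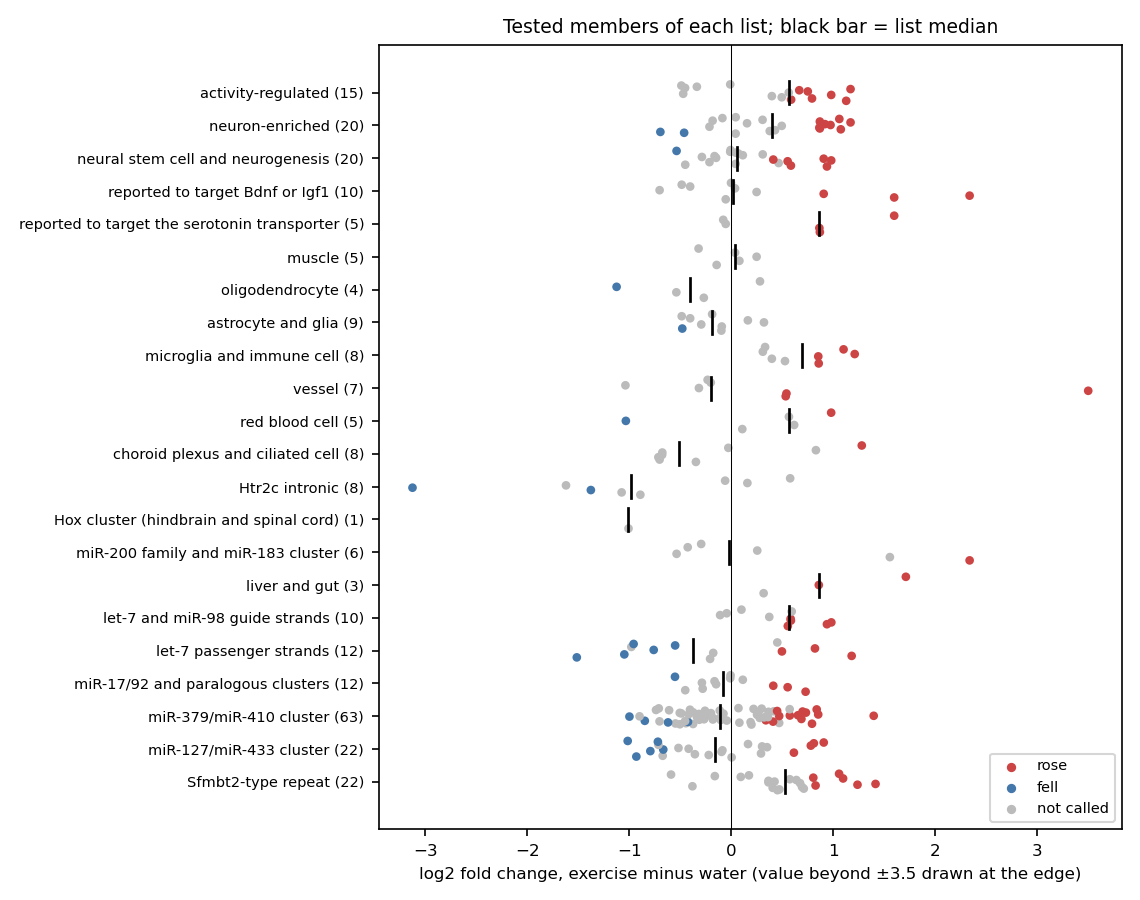
log2 fold change (exercise minus water) of each tested member of 22 lists, with the number tested in parentheses, the colour giving the call and the black bar the list median. Members of most lists lie on both sides of 0, and no muscle microRNA is called.

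Lists that mark other cell types moved unevenly. For oligodendrocytes, miR-338-3p ranged from 3872 to 5097 CPM in water and stood at 2977, 3730, 957, 1177 and 1116 CPM after exercise, and fell (-1.13 ± 0.31, adjusted p = 0.0153). The defining miR-219a-5p stood at 938 to 1269 CPM in water and at 894, 2244, 101, 246 and 253 CPM after exercise, and was not called (-0.54 ± 0.55), since WT-exercise 2 was above all water libraries and WT-exercise 3, 4 and 5 below. Of 4 tested members of the list, 1 fell and none rose, against 12.7% and 19.9% of all tested. The summed level of the list ranged from 5874 to 7765 CPM in water and from 2203 to 6918 CPM after exercise.

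Microglia and immune cell microRNAs had 4 of 8 that rose and none that fell, against 19.9% and 12.7% of all tested. Only miR-142a-3p was called without WT-exercise 3, 4 and 5, and none with letter G only. The list summed to 2569 to 3588 CPM in water and 2863 to 11270 CPM after exercise. Most of that sum was miR-150-5p, a lymphocyte microRNA, at 2024 to 3084 CPM in water and 2713, 2146, 10158, 6432 and 5765 CPM after exercise (1.21 ± 0.30). Its log2 fold change without WT-exercise 3, 4 and 5 was 0.06. miR-142a-3p, specific to blood cells, did not follow that split: it ranged from 51.9 to 108.2 CPM in water and stood at 144, 160, 137, 131 and 170 CPM after exercise (0.86 ± 0.17). miR-223-3p (1.10 ± 0.34) and miR-146b-5p (0.85) rose as well.

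Vessel microRNAs had 3 of 7 that rose, miR-126a-3p (0.53 ± 0.19), miR-126a-5p (0.54) and miR-126b-5p, and none that fell. For each list of this paragraph the shares of all tested are 19.9% that rose and 12.7% that fell. Of the vessel list only miR-126b-5p was called without WT-exercise 3, 4 and 5. Without WT-exercise 1 and 2 it had 3 that rose and 2 that fell, where 33.6% and 24.0% of all tested did. The red blood cell microRNA miR-451a fell (-1.03 ± 0.34) and miR-486b-5p rose (0.98), and the list summed to 1181 to 2467 CPM in water and 534 to 1873 CPM after exercise. For astrocytes and glia, 1 of 9 fell (miR-23a-3p, -0.48) and none rose. Choroid plexus and ciliated cell microRNAs had 1 of 8 that rose (miR-449a-5p, 1.28 ± 0.26) and none that fell. Their summed level ranged from 6666 to 25930 CPM in water and from 6683 to 11504 CPM after exercise, and miR-211-3p and miR-449b were at 0 in all 12 libraries.

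The faller of largest fold was miR-1298-5p. It lies in an intron of Htr2c, a serotonin receptor gene that choroid plexus expresses strongly, and it ranged from 63.4 to 1485 CPM (median 167) in water and stood at 78.1, 118, 24.1, 38.3 and 33.1 CPM after exercise (-3.13 ± 0.83, adjusted p = 0.0133). The water libraries with most miR-1298-5p, WT-water 4, 6 and 7 (1074, 594 and 1485 CPM), also had most miR-204-5p (16816, 8914 and 20979 CPM), the main choroid plexus microRNA. Of 8 tested microRNAs in Htr2c, 2 fell, miR-1298-5p and miR-1298-3p, against 12.7% of all tested. Of 6 tested members of the miR-200 and miR-183 groups 1 rose, against 19.9% of all tested. This was miR-182-5p (2.34 ± 0.72), with 4.99, 1.05, 18.5, 52.4 and 14.6 CPM after exercise. The single tested Hox cluster microRNA, miR-10a-5p (-1.01), was not called. The part of any of these cell types in the microRNA changes was not tested.

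Imprinted clusters, which supply many microRNAs of the brain, gave both directions. In the miR-379/miR-410 cluster, 13 of 63 rose and 4 fell, against 19.9% and 12.7% of all tested. None of 64 was called without WT-exercise 3, 4 and 5. Without WT-exercise 1 and 2, 18 of 64 rose and 19 fell, where 33.6% and 24.0% of all tested did. The summed level ranged from 26107 to 27382 CPM in water and from 23708 to 29620 CPM after exercise. miR-409-3p had the largest fold there, from 130 to 183 CPM in water to 267, 176, 654, 447 and 524 CPM (1.40 ± 0.25). miR-411-5p rose in all 5, from 392 to 612 CPM in water to 741, 899, 1204, 955 and 1041 CPM (0.85 ± 0.15). In the neighbouring miR-127/miR-433 cluster, 4 of 22 rose and 5 fell, against the same 19.9% and 12.7%. None of that cluster was called without WT-exercise 3, 4 and 5. Of the Sfmbt2-type repeat microRNAs, 6 of 22 tested rose and none fell, against 19.9% and 12.7% of all tested, and their near-identical copies make each value uncertain. None of 24 was called without WT-exercise 3, 4 and 5, and none with letter G only. Without WT-exercise 1 and 2, 12 of 24 rose, against 33.6% of all tested in that setting.

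The arms of a hairpin often differed. Both arms were tested and had a listed sequence for 173 hairpins. For 19 of them both arms were called, 13 in the same direction and 6 in opposite directions. In all 6, the more abundant arm rose and the other fell: miR-16-2, miR-218-2, miR-501, miR-505, let-7c-1 and let-7e. Hairpins with an arm among the 79 tested microRNAs without a sequence are left out of these counts. Among those left out are miR-150, whose 5p arm rose and 3p arm fell, and miR-126a, whose arms both rose. A mature strand that several hairpins encode, such as miR-16-5p, cannot be assigned to one of them by its sequence. These 6 were named after their values were seen. For miR-16-2 the minor arm, miR-16-2-3p, ranged from 4.53 to 11.98 CPM in water and from 0.804 to 5.00 CPM after exercise (-1.21 ± 0.34). Across hairpins the log2 fold changes of the 2 arms had r = 0.27 (Spearman's rho = 0.24), as a description over 173 hairpins of the same 12 libraries. More abundant arms rose in 43 and fell in 18 hairpins, while less abundant arms rose in 23 and fell in 31. Of all tested microRNAs, 19.9% rose and 12.7% fell. A strand that several hairpins share, such as miR-218-5p or miR-128-3p, enters these counts and the r once per hairpin.

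**Figure D5:**
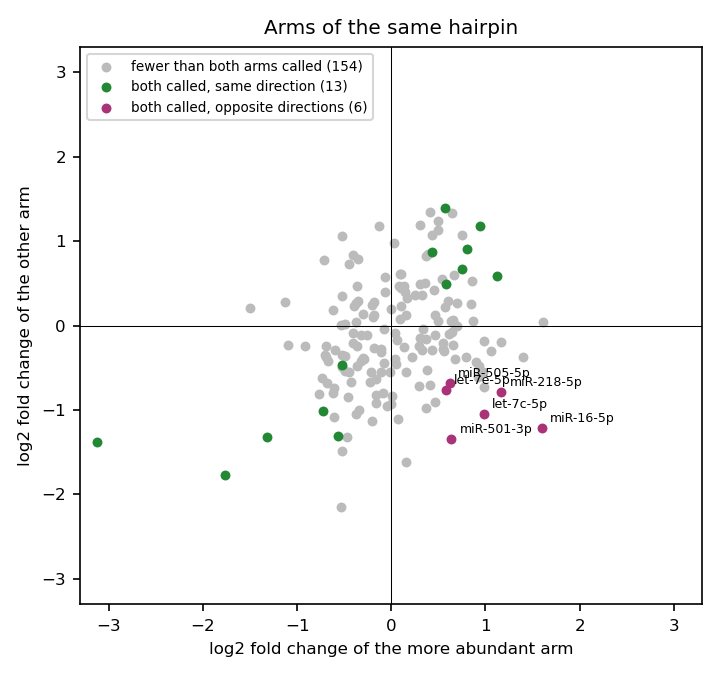
log2 fold change (exercise minus water) of the more abundant arm (x) and the other arm (y) for 173 hairpins with both arms tested and with a listed sequence. The 6 hairpins with arms called in opposite directions all lie at the lower right, where the abundant arm is higher after exercise and the other lower.

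Sequence features differed between risers and fallers in arm and first base. Of the 90 risers with a sequence, 50 were 5p and 38 were 3p strands, against 21 and 40 of the 65 fallers and 206 and 245 of all 474. A first base U, which Argonaute favours, was present in 44.4% of risers, 23.1% of fallers and 40.1% of all. A first base C was present in 21.1%, 33.8% and 20.9%. Median GC content was 47.8%, 52.4% and 47.6%. Across all 474, the fold change had r = -0.01 with GC content and -0.02 with length, given as descriptions.

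The comparison with KO mice tested whether exercise acted differently without the serotonin transporter. No microRNA of 571 was called for the interaction (0.0%; edgeR), 101 had an unadjusted p below 0.05, and DESeq2 called none. In KO mice alone, 16 of 523 rose (3.06%) and 5 fell (0.956%), among the risers miR-126b-5p (8.80), miR-122b-3p (5.86), miR-132-3p (0.80) and miR-130a-3p (1.18). The difference between genotypes for miR-132-3p was -0.40 ± 0.21, and for miR-212-3p -0.39 ± 0.19. For miR-218-5p it was -1.42 ± 0.47 (adjusted p = 0.19), with an effect in KO of -0.17.

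KO mice given water had no exercise, and their libraries differed among themselves in the same microRNAs. In CPM scaled over both genotypes, miR-16-5p stood at 5239, 6386, 13264, 16084, 6477 and 18694 in KO-water 1 to 6. miR-218-5p stood at 19271, 23859, 54323, 73876, 21088 and 71759, and miR-338-3p at 3170, 3450, 1171, 846, 4240 and 1142. KO-water 3, 4 and 6 thus lay outside the range of WT-water for these 3 microRNAs, on the same side as WT-exercise 3, 4 and 5. For miR-16-5p, KO-water 1, 2 and 5 lay within the WT-water range (4319 to 6688 CPM). For miR-218-5p they too lay above it (12728 to 18103 CPM), though below KO-water 3, 4 and 6. For miR-338-3p, KO-water 1 and 2 lay below it (3910 to 4591 CPM), though above KO-water 3, 4 and 6. miR-132-3p did not set KO-water 3, 4 and 6 apart. It stood at 2375, 2174, 1984, 2789, 3265 and 2437 CPM in KO-water 1 to 6, below the 4594 to 6429 CPM of the WT-exercise libraries on the same scale. miR-212-3p (994 to 1565 CPM) and miR-126b-5p (at most 0.534 CPM) also stayed below all WT-exercise libraries in KO-water. miR-130a-3p did not: it stood at 678, 382, 945, 1479, 709 and 901 CPM in KO-water 1 to 6. KO-water 3, 4 and 6 lay above the WT-water range for it (518 to 857 CPM), and KO-water 4 above WT-exercise 1 (1231 CPM). With KO-water 3, 4 and 6 as the only KO-water libraries the interaction called 252 microRNAs, and with KO-water 1, 2 and 5 it called none.

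Against WT mice given corticosterone, a direct contrast that uses no water library, exercise differed in 0 of 521 microRNAs (0.0%; edgeR), with 20 at an unadjusted p below 0.05. DESeq2 called 1, miR-212-3p, with an edgeR log2 fold change of 0.66 ± 0.13 (exercise minus corticosterone, adjusted p = 0.107). miR-132-3p had 0.58 ± 0.18 in the same contrast. miR-126b-5p (0.33 ± 0.55), miR-122b-3p (0.19 ± 0.60), miR-16-5p (0.21 ± 0.31) and miR-218-5p (-0.07 ± 0.31) had differences smaller than their SE or close to it.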

How the data were processed

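The authors deposited whole-number read counts for 1966 mature microRNAs, which were used as deposited. The submitters' processing notes name cutadapt 2.3, BWA, Subread, featureCounts, limma 3.54.1 and GRCm38 (mm10), with no role or order. For strand use, and for reads that match several loci, the sources used here give nothing. Other columns of per-sample values numbered 0.

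Counts of the 12 libraries were fitted with edgeR 4.0.16 in R 4.3.3 (filterByExpr by group, TMM scaling, robust quasi-likelihood F test, Benjamini-Hochberg over all tested, called below 0.05). SE is derived from the F statistic. CPM is TMM-scaled. All pairs of libraries within a group differed by more than sampling noise (lowest chi-square per degree of freedom 16.1). Alternatives used DESeq2 1.42.0, limma 3.58.1, other filters and scalings, covariates, a replicate block and left-out libraries. The script was tested on simulated data. Seeds came from 1675 RefSeq sequences, host genes from GENCODE. The members and lists were chosen with earlier results of these data known. Named microRNAs were the 10 of smallest p in each direction, a set list, the most abundant and the leading called members of each list, the other arms, and members of the leading seed families. Further list members and hairpins were named after their values were seen.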

Additional observations from a re-analysis of the deposited data

Results flagged for a closer look

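Among 68 group tests of 34 named microRNAs, 7 single libraries stood apart from the rest of their group by Dixon's criterion, where chance gives about 1 in 20. The gap to the nearest library is given as a share of the group's range, both taken on a log scale. Levels are printed in CPM, and the same shares taken on the CPM scale differ.

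miR-29a-3p, one of the 5 most abundant microRNAs, stood at 4435 CPM in WT-water 5 (14330 counts). The other water libraries had 47513 CPM or more, a gap of 0.950 of the range. miR-29b-3p had 162575 counts in WT-water 5. That strand can come from a hairpin near that of miR-29a on chromosome 6 or from another on chromosome 1. Without WT-water 5 the log2 fold change of miR-29a-3p was -0.57 in place of -0.40, and it was not called in either. miR-132-3p was high in WT-water 1 (3401 CPM, next 2714, gap 0.623), and that library still lay below all exercise libraries. The 2 counts of miR-126b-5p in WT-water 4 gave a gap of 1.00, the other 6 water libraries being at 0.

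miR-150-3p was high in WT-water 1 (59.4 CPM, gap 0.669) and low in WT-exercise 3 (4.82 CPM, gap 0.716). miR-30a-5p was high in WT-exercise 1 (10240 CPM, next 7887, gap 0.794). miR-873a-5p was low in WT-water 5 (285 CPM, next 352, gap 0.579).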

How the results depend on the processing

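The main count of 180 calls stayed within 1.5 times under DESeq2, DESeq2 size factors, limma-voom, both other filters, no scaling, letter H only, the joint fit with corticosterone and the code letter as covariate. As a share of the microRNAs tested (32.5% in the main comparison), 9.13% of 1445 were called with no filter on low counts, 1.74% (10) were called with letter G only and 49.9% (276) with the first axis of within-group variation as covariate. The share was 10.3% (57, of which 47 among the 180) when that covariate kept the groups' positions, 57.6% without WT-exercise 1 and 2 and 2.35% without WT-exercise 3, 4 and 5. These last 3 settings, and the sets of KO-water libraries, were chosen after seeing the data, and the axis comes from the same counts. Leaving out 1 library gave 18.4% to 48.8%, with 48.8% without WT-exercise 2 and 20.1%, 19.4% and 18.4% without WT-exercise 3, 4 and 5. Of families (34.1%), 53.4% were called with the axis, 13.3% with positions kept, 61.8% and 3.26% without the same sets of libraries, and 19.7% to 52.3% leaving out 1 library. With the replicate number as a block, 6.87% of microRNAs (38) and 5.26% of families (21) were called. Same-numbered libraries share no stated origin, their deviations correlated at -0.07 to 0.16, and 1 of 5 numbers matched itself best. The interaction (0 called) gave 28.9% with the axis, 7.50% without WT-exercise 1 and 2, 42.3% with KO-water 3, 4 and 6 only, and 0.0% to 0.17% leaving out 1 library (miR-129-2-3p, without WT-exercise 2). Exercise against corticosterone (0 called) gave 1 microRNA with DESeq2 (0.0719%) and 1 with the axis (0.192%), miR-212-3p in both. The cause of each was not tested.

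Some calls also hung on single libraries. Of 12 fits that each left out 1 library, 10 lost the call of miR-18a-5p and 9 that of miR-93-3p. The call was lost in 7 fits for miR-126a-3p, 6 for miR-23a-3p and miR-451a, and 5 for let-7a-5p and miR-212-5p. No fit lost the call of miR-132-3p, miR-212-3p, miR-130a-3p or miR-16-5p. Signs changed mostly for values near 0 that were not called. Leaving out 1 library gave ranges of -0.011 to 0.088 for miR-124-3p, -0.28 to 0.23 for miR-206-3p, -0.17 to 0.068 for miR-30a-5p, -0.31 to 0.042 for miR-9-3p and -0.11 to 0.16 for miR-9-5p. miR-124-3p had -0.020 without the filter, -0.081 with letter H, -0.070 without scaling and -0.014 with positions kept. miR-206-3p had -0.080 with voom, -0.021 without the filter, -0.39 with letter G, -0.067 without scaling, -0.052 with the letter as covariate, -0.043 with the replicate block, -0.13 without WT-exercise 3, 4 and 5 and -0.10 with positions kept. miR-9-5p had -0.0072 without the filter, -0.057 without scaling, -0.00056 with the axis, -0.089 with the replicate block and -0.18 without WT-exercise 1 and 2. miR-30a-5p had 0.056 with letter G, 0.010 with letter H, 0.011 with the 10 CPM filter, 0.011 with the letter as covariate, 0.0076 without WT-exercise 1 and 2, 0.12 without WT-exercise 3, 4 and 5 and 0.056 with positions kept. With letter G, values were 0.31 for miR-133a-3p, 0.10 for miR-376a-3p and 0.15 for miR-9-3p. With letter H, values were 0.065 for miR-431-5p. Without WT-exercise 1 and 2, values were 0.075 for miR-431-5p. Without WT-exercise 3, 4 and 5, values were 0.34 for miR-133a-3p, -0.067 for miR-138-5p, -0.30 for miR-182-5p, -0.046 for miR-192-5p, 0.058 for miR-19b-3p, 0.20 for miR-29a-3p, 0.052 for miR-29b-3p, -0.15 for miR-331-5p, 0.17 for miR-376a-3p, 0.26 for miR-434-3p, -0.0039 for miR-486b-5p, 0.10 for miR-7a-5p and 0.43 for miR-9-3p. Of these, miR-182-5p, miR-192-5p and miR-486b-5p were called in the full comparison. With positions kept, values were 0.15 for miR-133a-3p, 0.032 for miR-29a-3p, -0.073 for miR-331-5p, 0.081 for miR-376a-3p, 0.052 for miR-7a-5p and 0.27 for miR-9-3p.

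Depth was lower after exercise, 1833409 ± 342167 against 2830878 ± 837148 counts, and microRNAs of a few CPM rest on few counts. The settings that keep 2 exercise libraries estimate the spread from few samples.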
